A study of Mus musculus with 18 samples.

Results

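Basophils grown from the bone marrow of ST2KO mice and of wild-type (WT) mice were compared after stimulation with IL-33, with 3 arrays of each genotype. These 6 arrays were chosen by their labels from a series of 18, in which cells of both genotypes were also left unstimulated or activated through IgE, again with 3 arrays for each genotype and condition. The genotype label ST2KO names a knockout of ST2, the receptor for IL-33, and the WT cells are labelled wild type. All donors were C57BL/6J mice of 4 to 6 weeks, and a stimulation time of 4 h is labelled for both stimuli. The labels give no dose of IL-33, no construction of the ST2KO allele, and do not say whether the 3 arrays of a group came from separate mice or cultures, so that p-values measure the spread between arrays, which may be technical.

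Basophils are rare granulocytes of type 2 immunity that release histamine, IL-4, IL-13 and lipid mediators. IL-33 is an alarmin set free by damaged epithelium and stroma. It binds ST2 on the cell surface, which pairs with the accessory chain encoded by Il1rap and recruits MyD88, IRAK kinases and TRAF6, and the signal reaches NF-kB and the MAP kinases. NF-kB in turn induces cytokines, chemokines and its own inhibitors, among them Nfkbia and Tnfaip3. The comparison therefore asks which transcripts of IL-33-treated basophils differ when ST2 is missing.

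Each array gave an intensity for 45281 probes of an Illumina bead array, and 9973 genes were tested after normalization. Levels below are normalized log2 intensities, and differences are ST2KO minus WT on the same log2 scale, given with the standard error. A gene was called where limma's Benjamini-Hochberg adjusted p, taken over all 9973 genes, was under 0.05. Between 14716 and 15291 probes per IL-33 array were above background. Replicates correlated at 0.989 to 0.992 within ST2KO and at 0.981 to 0.994 within WT, and 0 pairs of arrays held identical signals. The arrays labelled WT number 2 stood apart in interferon response genes, with a mean level over 32 of them of 9.52 after IL-33, against 8.08 and 7.62 on the other WT arrays, and where the count of called members of a list described below moved by over 1.5 times without the 3 arrays of number 2, the count without them is also given. WT IL-33 array 2 also had the highest mean of the WT IL-33 arrays over neutrophil, macrophage and monocyte, and eosinophil markers. Il1rl1, which encodes ST2, has 0 probes in the platform annotation used, so its level was not analysed here and the ST2KO labels rest on the submitters' word.

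The cells were compared first on the genes that define basophils. Mcpt8, a basophil protease, read 12.87, 12.47 and 12.64 on the ST2KO arrays, against 12.75, 12.85 and 12.43 on the WT arrays (adjusted p = 0.979). Of 20 basophil markers measured, 18 were above background on all 6 arrays, and the mean level over the 20 lay between 10.89 and 10.93 on ST2KO arrays and between 10.95 and 11.03 on WT arrays. The median difference over the 20 was 0.03, with 9 below 0 and 11 above. Cd69, an early activation antigen that is also in that list, was the 1 member called. It differed by -2.28 and is part of those means. In bulk RNA, fewer cells of a type and less RNA per cell cannot be told apart.

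After IL-33, 605 of 9973 genes (6.07%) were called, 374 lower in ST2KO (3.75%) and 231 higher in ST2KO (2.32%). The falls were larger than the rises. Of the 374 genes that fell, 160 were at least 2-fold lower and 48 at least 4-fold lower, with a median difference of -0.92. Of the 231 that rose, 17 were at least 2-fold higher and 1 at least 4-fold higher, with a median of 0.58. The median difference over all genes tested was 0.03. Leaving out 1 IL-33 array at a time left between 270 and 328 genes called lower, but the number called higher was 95, 130 and 148 without WT arrays 1, 2 and 3, and 143, 82 and 98 without ST2KO arrays 1, 2 and 3.

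**Figure D1:**
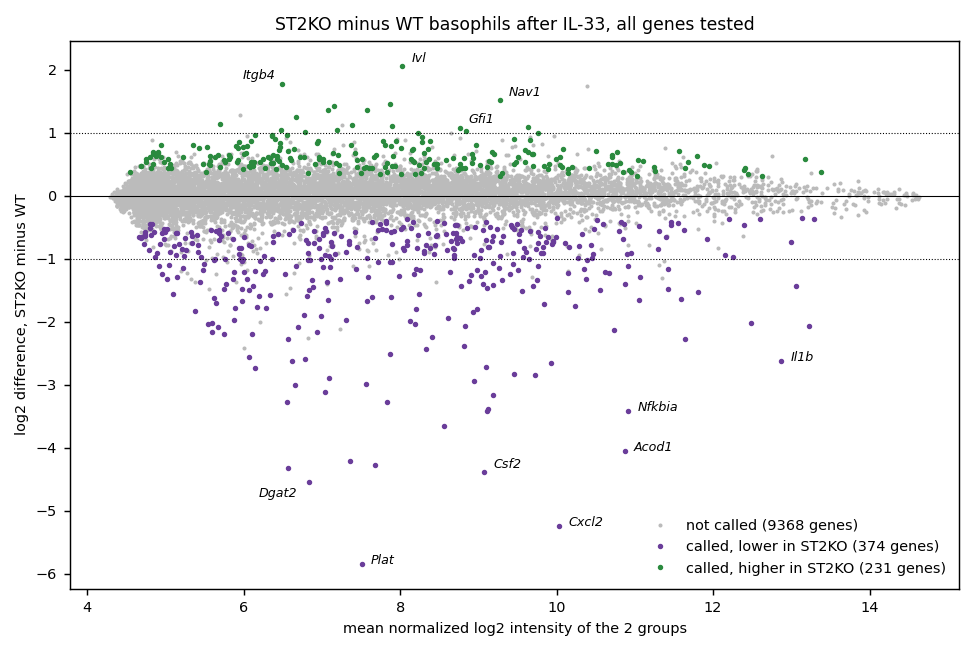
The log2 difference after IL-33 (vertical axis, ST2KO minus WT) is plotted against the mean normalized log2 intensity of both groups (horizontal axis) for 9973 genes, with a point for each gene and dotted lines at a 2-fold difference. The 374 genes called lower reach -5.84, and the 231 called higher reach 2.06.

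The probes of a gene mostly moved together. Of the 374 genes called lower, 164 had more than 1 probe above background, and 24 of these had a probe with the opposite sign. Of the 231 called higher, 88 had more than 1 such probe and 17 had an opposite one. Among genes with at least a 2-fold difference, the numbers with an opposite probe were 3 of 65 for falls and 0 of 6 for rises. On all 3 ST2KO arrays, 36 of the genes called lower were not well above background, and 15 of those called higher were not on any WT array. For such a gene the fold is a bound, computed against the lowest level among detected probes of an array where the probe itself read lower.

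The largest difference was in Plat, which encodes tissue plasminogen activator, a protease that turns plasminogen into plasmin. It read 4.71, 4.58 and 4.48 on ST2KO arrays, where it was not well above background, against 10.40, 10.26 and 10.61 on WT arrays, at least 48.8-fold lower (adjusted p = 3.99e-12). Dgat2, the enzyme of the last step of triglyceride synthesis, was also not well above background in ST2KO, at 4.56, 4.73 and 4.41, against 9.27, 9.17 and 8.89 in WT, at least 19.6-fold lower (adjusted p = 8.78e-09). The groups did not overlap for either gene, as for 2319 of all 9973 genes tested (23.3%). Tpbg, a cell surface glycoprotein first known from trophoblast, was at least 15.1-fold lower (adjusted p = 1.37e-09), with 4.42, 4.44 and 4.36 in ST2KO and 8.57, 8.74 and 8.87 in WT. Ubxn11 was at least 4.11-fold lower (adjusted p = 7.04e-08). St3gal5, which makes the ganglioside GM3, was at least 3.63-fold lower (adjusted p = 6.35e-07).

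Among cytokines, the inflammatory ones held the largest share of falls. Of 9 measured members of the list of inflammatory cytokines, 6 were lower and 0 higher, with a median difference of -2.56. The list of type 2 and growth cytokines had 5 lower of 12 measured, with a median of -0.44, and 2 to 5 lower over the 30 alternative settings tried, with 3 lower without WT number 2. Csf2, which encodes GM-CSF, read 7.64, 6.85 and 6.17 on ST2KO arrays, against 11.05, 11.48 and 11.26 on WT arrays, a difference of -4.38 ± 0.39 (adjusted p = 8.82e-07). Il1a read 5.22, 5.30 and 5.23 in ST2KO, against 9.44, 9.41 and 9.5 in WT, a difference of -4.20 ± 0.27 (adjusted p = 1.73e-08). The 3 ST2KO values of Il1a lay close together near the floor of detection, and the 3 WT values were as close together far above it. Il6 read 7.94, 7.24 and 7.09 in ST2KO and 10.59, 10.89 and 10.96 in WT (-3.39 ± 0.27, adjusted p = 2.41e-07). Tnf read 6.91, 6.03 and 5.65 in ST2KO and 9.25, 10.28 and 8.90 in WT (-3.28 ± 0.48, adjusted p = 2.53e-04). WT array 2 was the highest for Tnf. The groups did not overlap for Il6 or Tnf, which was a condition of the rule for the largest falls that named both. Il1b, at 11.24, 11.82 and 11.62 in ST2KO and 14.08, 14.14 and 14.32 in WT, was bright in both genotypes and 6.14-fold lower in ST2KO (adjusted p = 6.65e-09). Il1rn, which encodes the antagonist of the IL-1 receptor, differed by -2.56 ± 0.28, and Ebi3, a subunit of IL-27 and IL-35, by -1.99 ± 0.18.

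The cytokines that basophils are best known for moved less. Il13 read 4.83, 5.39 and 5.0 in ST2KO, against 6.21, 6.92 and 6.27 in WT, a difference of -1.39 ± 0.23 (adjusted p = 7.15e-04). Il4 was bright in both genotypes, with 10.75, 10.57 and 10.54 in ST2KO and 10.87, 11.26 and 10.98 in WT, a difference of -0.42 ± 0.11 (adjusted p = 0.0309). The call for Il4 was lost in 7 of 30 alternative settings. Without WT array 2 its adjusted p was 0.137, without WT array 3 it was 0.0535, without ST2KO array 2 it was 0.108 and without ST2KO array 3 it was 0.118.

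Chemokines fell in 8 of 23 measured members and rose in 0, with a median of -0.53. Cxcl2, a ligand of the neutrophil receptor CXCR2, read 7.92, 7.33 and 7.0 on ST2KO arrays and 12.56, 12.59 and 12.79 on WT arrays, a difference of -5.23 ± 0.31 or 37.6-fold (adjusted p = 6.65e-09). Cxcl1, a further ligand of that receptor, read 6.48, 6.08 and 5.66 in ST2KO and 9.11, 8.94 and 9.10 in WT (-2.98 ± 0.45, adjusted p = 3.35e-04). Ccl3, Ccl4 and Ccl5, chemokines that attract monocytes and T cells, differed by -2.07 ± 0.16, -1.44 ± 0.28 and -1.75 ± 0.24. Cxcl16, which binds CXCR6, differed by -2.16 ± 0.22. Of 12 chemokine and chemoattractant receptors measured, 1 was lower, the chemerin-binding receptor Ccrl2 at -1.80 ± 0.22.

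**Figure D2:**
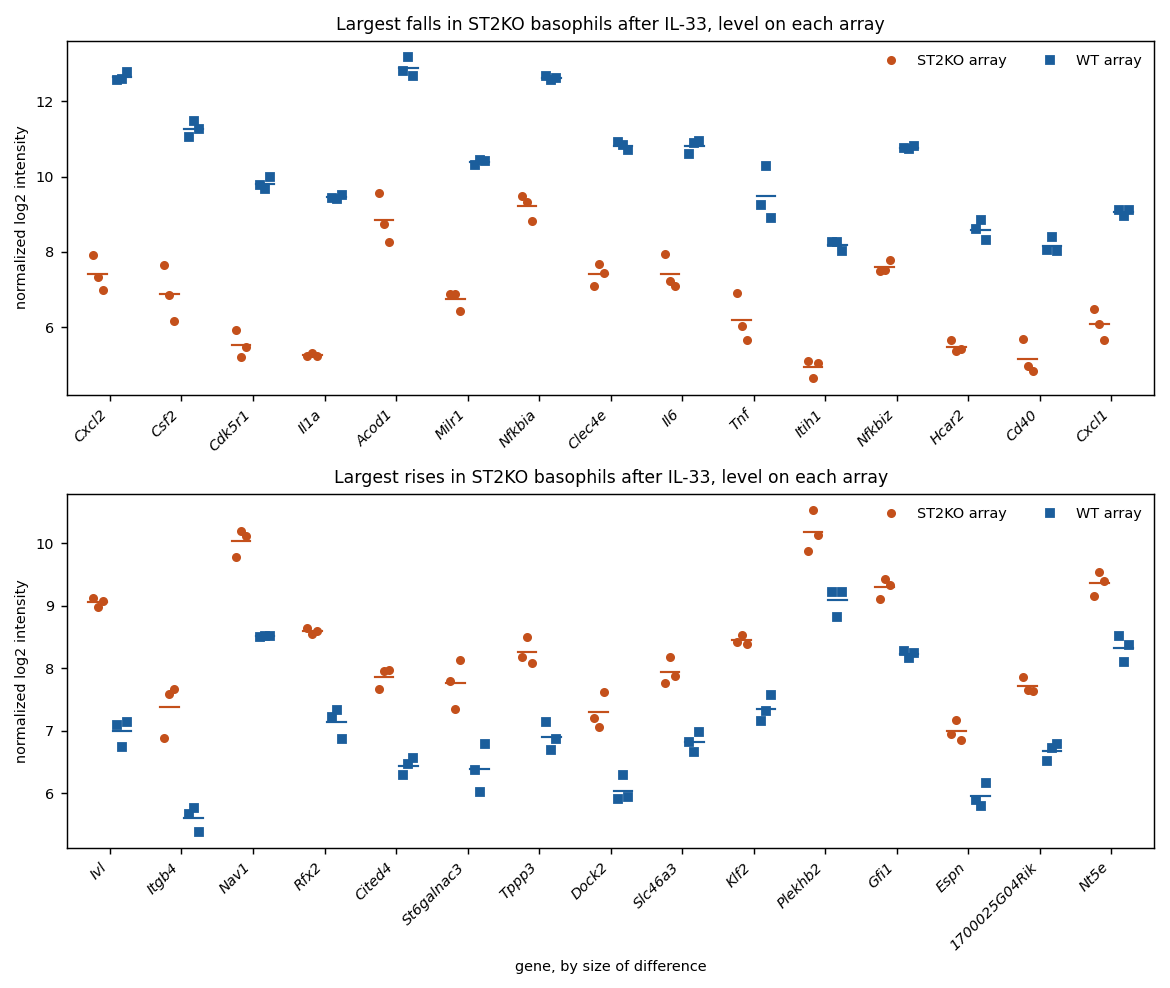
Normalized log2 intensity (vertical axis) on each of the 3 ST2KO arrays (circles, left of each pair) and 3 WT arrays (squares, right) after IL-33, with a line at each group mean, for the 15 genes with the largest falls (upper panel) and the 15 with the largest rises (lower panel) among called genes that were above background in both groups. The ST2KO and WT points of a gene do not overlap, which was part of the choice of these genes.

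Promoter sequence is shown for 4 of the genes that fell, since their windows hold NF-kB motifs. The windows are the 250 bases before the annotated start, from RefSeq on GRCm38.p6 of the mouse, each printed on the gene's own strand. Capitals mark matches on either strand to the NF-kB consensus, given here by name and 10 bases long, or to a shorter NF-kB pattern, GGANTTTCC. A match to the shorter pattern need not match the consensus, but the 2 patterns can match the same bases. Cxcl2 lies at chr5:90903649-90903898 on the + strand, Acod1 at chr14:103046762-103047011 on the + strand, Nfkbia at chr12:55492648-55492897 on the - strand and Il6 at chr5:30012864-30013113 on the + strand.
Cxcl2: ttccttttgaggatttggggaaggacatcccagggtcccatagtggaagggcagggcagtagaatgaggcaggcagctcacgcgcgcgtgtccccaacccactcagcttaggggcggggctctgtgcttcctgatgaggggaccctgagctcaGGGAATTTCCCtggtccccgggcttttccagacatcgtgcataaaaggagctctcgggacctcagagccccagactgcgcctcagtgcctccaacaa
Acod1: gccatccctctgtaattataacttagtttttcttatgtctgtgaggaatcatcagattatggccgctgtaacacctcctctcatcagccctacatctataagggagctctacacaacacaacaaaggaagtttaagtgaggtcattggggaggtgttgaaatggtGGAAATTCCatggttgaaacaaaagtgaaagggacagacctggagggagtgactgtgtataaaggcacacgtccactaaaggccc
Nfkbia: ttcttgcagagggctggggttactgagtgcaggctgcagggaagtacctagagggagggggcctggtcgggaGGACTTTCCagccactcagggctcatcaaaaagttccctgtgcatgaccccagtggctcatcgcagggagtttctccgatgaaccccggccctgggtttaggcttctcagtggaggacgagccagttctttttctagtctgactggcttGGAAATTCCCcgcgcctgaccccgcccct
Il6: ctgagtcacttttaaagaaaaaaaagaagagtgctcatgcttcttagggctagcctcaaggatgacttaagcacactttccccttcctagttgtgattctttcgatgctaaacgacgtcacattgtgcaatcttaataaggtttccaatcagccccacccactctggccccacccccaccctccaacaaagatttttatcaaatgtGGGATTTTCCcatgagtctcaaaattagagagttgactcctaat

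In Cxcl2 the matches ran together between 97 and 87 bases before the start. In Acod1 the shorter pattern lay between 85 and 77 bases before the start, with 0 matches to the consensus. Nfkbia held matches from 178 to 170 and from 29 to 20 bases before the start, and Il6 from 44 to 35. Over whole windows of 250 bases before to 50 after the start, the consensus was held by 47 of the 294 genes called lower that had a window (16%), by 27 of 126 called at least 2-fold lower (21.4%), by 21 of 190 called higher (11.1%) and by 806 of 8129 genes tested (9.92%). The shorter pattern GGANTTTCC was held by 18 of the 294 (6.12%), by 0 of the 190 called higher and by 112 of the 8129 (1.38%). The AP-1 motif TGANTCA was held by 8.5% of the genes called lower and 5.40% of all tested, and the CRE motif TGACGTCA by 1.70% of the genes called lower and 3.15% of all tested. These shares describe letters in a window and carry no test.

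The genes of the NF-kB pathway fell widely. Of 26 measured members of the list of NF-kB pathway and feedback genes, 18 were lower and 0 higher, with a median of -1.24, and over the 30 alternative settings 15 to 18 were called lower. Nfkbia, the inhibitor that holds NF-kB in the cytoplasm and is itself an NF-kB target, read 9.49, 9.32 and 8.82 on ST2KO arrays, against 12.67, 12.57 and 12.64 on WT arrays (-3.41 ± 0.19, adjusted p = 2.30e-09). Its promoter is among those printed above. Nfkbiz, a nuclear co-regulator of Il6, read 7.5, 7.52 and 7.78 in ST2KO and 10.76, 10.73 and 10.82 in WT (-3.17 ± 0.25, adjusted p = 2.68e-07). Ikbke, an IKK-related kinase, read 7.45, 7.40 and 7.56 in ST2KO and 10.37, 10.53 and 10.34 in WT (-2.94 ± 0.15, adjusted p = 1.38e-09). The spread within each group was small for all 3 beside the gap between groups. Zc3h12a, an RNase that degrades cytokine mRNA, differed by -2.52 ± 0.16. The co-regulator Bcl3 differed by -1.98 ± 0.17 and the subunit Relb by -1.97 ± 0.17. The ubiquitin-editing inhibitor Tnfaip3 differed by -1.72 ± 0.16 and Nfkbie by -1.66 ± 0.17. The adaptors upstream moved less. Of 21 genes of IL-33 and IL-1 receptor signalling, 3 were lower, which were the inhibitory kinase homolog Irak3 (-1.40 ± 0.14), the p38 target kinase Mapkapk2 (-0.76 ± 0.12) and Irak2 (-0.74 ± 0.13). Myd88 read 11.38, 11.48 and 11.12 in ST2KO and 11.30, 11.88 and 11.17 in WT (adjusted p = 0.771). Il1rap, the chain that pairs with ST2, read 5.09, 5.14 and 4.84 in ST2KO and 4.70, 4.97 and 4.74 in WT (adjusted p = 0.545), and its probes did not share a sign.

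Transcription factors and feedback regulators of other signals fell in smaller numbers. The list of immediate early and NFAT response genes had 7 lower and 0 higher of 25, among them Egr2 at -2.28 ± 0.25, Batf at -1.79 ± 0.17, Ier3 at -1.53 ± 0.14 and Junb, an AP-1 subunit, at -0.90 ± 0.14. Feedback genes of MAP kinase and cytokine signals had 9 lower and 1 higher of 32. Gadd45b, a stress-induced activator of MAP kinase signalling, read 7.95, 7.92 and 7.03 on ST2KO arrays and 9.89, 10.20 and 9.95 on WT arrays (-2.38 ± 0.24, adjusted p = 3.17e-06). Socs3, an inhibitor of JAK kinases, differed by -1.94 ± 0.22, the kinase Pim2 by -1.63 ± 0.21 and the phosphatase Dusp16 by -0.86 ± 0.14. The member that rose was Rgs2, described with the other rises.

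Some surface receptors of costimulation and innate sensing were lower in ST2KO, while most members of both lists were not called. The TNF superfamily and costimulation list had 12 lower and 0 higher of 27, with a median of -0.49. Without WT array 2 in its 3 conditions 10 were called, and over the 30 settings 8 to 13. Icam1, the ligand of the integrin LFA-1, read 8.49, 8.34 and 8.08 in ST2KO and 11.30, 11.17 and 10.98 in WT (-2.84 ± 0.15, adjusted p = 1.38e-09). Cd40, the receptor of CD40 ligand, read 5.68, 4.96 and 4.83 in ST2KO and 8.05, 8.40 and 8.03 in WT (-3.0 ± 0.30, adjusted p = 3.86e-06). The death receptor Fas differed by -2.42 ± 0.13, Cd69 by -2.28 ± 0.35, the TNF receptor Tnfrsf1b by -2.04 ± 0.15 and the maturation marker Cd83 by -1.18 ± 0.19. Of 20 pattern recognition receptors, 7 were lower and 1 higher, and 12 were not called. Without WT number 2 the counts were 5 lower and 0 higher, and over the 30 settings 4 to 11 were called lower. Clec4e, the glycolipid receptor Mincle, read 7.09, 7.69 and 7.45 in ST2KO, against 10.93, 10.84 and 10.70 in WT (-3.41 ± 0.26, adjusted p = 1.24e-07). Its partner Clec4d differed by -1.23 ± 0.16, and Tlr2, a sensor of bacterial lipoproteins, by -1.34 ± 0.23. The inflammasome sensor Nlrp3 was not well above background in ST2KO and at least 1.73-fold lower (adjusted p = 1.29e-04).

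Inhibitory receptors did not move as a group, with 3 lower and 2 higher of 25 (1 to 5 lower and 0 to 2 higher over the 30 settings). One of the 3 was among the largest falls of all. Milr1, the ITIM-bearing receptor Allergin-1, which restrains degranulation of mast cells, read 6.89, 6.88 and 6.44 in ST2KO and 10.30, 10.45 and 10.42 in WT (-3.65 ± 0.20, adjusted p = 2.45e-09). Of 20 members of Fc epsilon receptor signalling, 2 were lower and 1 higher (2 and 0 without WT number 2). Rasgrp1, an exchange factor for Ras, differed by -2.58 ± 0.27, and Pik3cd, the catalytic p110 delta subunit, by -0.83 ± 0.13. Integrins and adhesion molecules had 4 lower and 1 higher of 35, with Icam1 and the tetraspanin Cd82 (-0.95 ± 0.11) among the falls.

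Mediator synthesis, lipid handling and redox metabolism each held a few large falls. Acod1, which makes the anti-inflammatory metabolite itaconate, read 9.56, 8.74 and 8.25 on ST2KO arrays and 12.81, 13.19 and 12.68 on WT arrays (-4.04 ± 0.35, adjusted p = 6.35e-07). Its list, NRF2 targets and itaconate, had 7 lower and 0 higher of 21. The cystine transporter Slc7a11 read 7.30, 7.01 and 7.56 in ST2KO and 9.67, 9.15 and 9.78 in WT (-2.24 ± 0.20, adjusted p = 1.03e-06). Hmox1, which degrades heme, differed by -1.25 ± 0.21, Sod2, the mitochondrial superoxide dismutase, by -1.16 ± 0.13, and the autophagy receptor Sqstm1 by -0.73 ± 0.12. In the list of lipid mediator, histamine and serotonin synthesis 4 of 20 were lower. Tph1, the first enzyme of serotonin synthesis outside the brain, read 5.32, 5.67 and 5.95 in ST2KO and 8.75, 8.41 and 8.45 in WT (-2.89 ± 0.29, adjusted p = 4.05e-06). Both enzymes of inducible prostaglandin E2 synthesis in the list were lower, Ptges at -0.76 ± 0.10 and Ptgs2 at least 1.13-fold (adjusted p = 0.0083). Hilpda, a lipid droplet protein that inhibits triglyceride breakdown, fell together with Dgat2, at -0.84 ± 0.14, among 3 lower of 18 genes of triglyceride and fatty acid handling (5 lower without WT number 2).

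Further large falls lay outside those groups. Cdk5r1, the activator p35 of the kinase CDK5, read 5.93, 5.20 and 5.48 in ST2KO and 9.78, 9.67 and 9.99 in WT (-4.28 ± 0.27, adjusted p = 1.73e-08). Hcar2, the receptor of niacin and beta-hydroxybutyrate, differed by -3.11 ± 0.25 and Itih1, a heavy chain of the inter-alpha-trypsin inhibitor, by -3.26 ± 0.22. Serpinb2, an inhibitor of plasminogen activators, fell alongside Plat, with 8.48, 8.55 and 8.77 in ST2KO and 11.25, 11.44 and 11.07 in WT (-2.65 ± 0.28, adjusted p = 6.63e-06). Of 22 genes of the BCL2 family and cell death, 5 were lower, and the count was 5 or 6 in all 30 settings. They were the survival gene Bcl2l1 (-1.0 ± 0.15), the caspase Casp4 (-0.74 ± 0.12) and the near-identical copies Bcl2a1b, Bcl2a1d and Bcl2a1c, whose probes may share transcripts and which differed by -1.46 ± 0.23, -1.41 ± 0.22 and -1.19 ± 0.22. Rcl1, a ribosome assembly factor, differed by -1.22 ± 0.13 and the HSP90 co-chaperone Stip1 by -0.64 ± 0.12. Of 30 genes of glycolysis and hypoxia, 3 were lower, which were P4ha2 (-0.94 ± 0.16), Egln3 (-0.82 ± 0.13) and Pfkm (-0.68 ± 0.11).

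**Figure D3:**
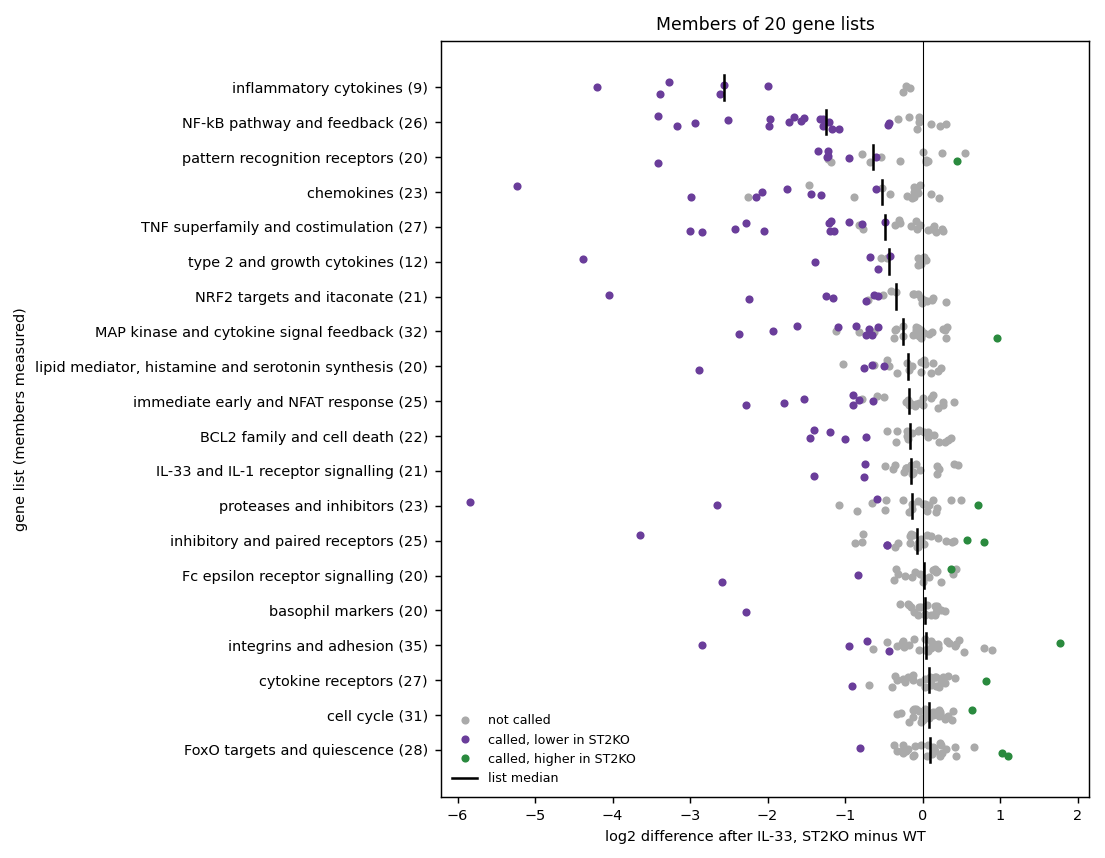
Each point is a measured member of 1 of 20 gene lists, placed by its log2 difference after IL-33, ST2KO minus WT (horizontal axis), with the lists down the page and the number of measured members in brackets. Points are coloured by call and the black bar is the list's median, which is -2.56 for inflammatory cytokines and -1.24 for the NF-kB list, against 0.03 for all genes.

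Of the 231 genes higher in ST2KO, 214 differed by under 2-fold. The gene with the largest rise was Ivl, which encodes involucrin, a precursor of the cornified envelope of keratinocytes. It read 9.12, 8.98 and 9.07 on ST2KO arrays, against 7.10, 6.74 and 7.15 on WT arrays, a difference of 2.06 ± 0.50 (adjusted p = 0.0187). Its call was lost in 7 of 30 settings, with adjusted p between 0.0521 and 0.0664 when WT array 1 or 2 or any of the 3 ST2KO arrays was left out. Itgb4, the integrin beta 4 chain that binds laminin, read 6.88, 7.59 and 7.67 in ST2KO and 5.68, 5.77 and 5.39 in WT (1.77 ± 0.18, adjusted p = 4.56e-06). Nav1, a microtubule-associated protein of growing neurites, read 9.79, 10.19 and 10.12 in ST2KO and 8.5, 8.52 and 8.52 in WT (1.52 ± 0.18, adjusted p = 2.24e-05). The 3 WT values of Nav1 were nearly equal, and each ST2KO value was over 1 unit higher. Tppp3, of a family that promotes tubulin polymerization, read 8.18, 8.49 and 8.09 in ST2KO and 7.14, 6.69 and 6.87 in WT (1.36 ± 0.18, adjusted p = 1.13e-04).

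Several of the other large rises encode regulators of transcription. Rfx2, a factor known for genes of cilia, read 8.65, 8.55 and 8.59 in ST2KO and 7.22, 7.34 and 6.86 in WT (1.46 ± 0.22, adjusted p = 3.79e-04). Cited4, a partner of CBP and p300, read 7.67, 7.95 and 7.97 in ST2KO and 6.29, 6.46 and 6.56 in WT (1.43 ± 0.21, adjusted p = 2.47e-04). Klf2, a factor of quiescence in lymphocytes and endothelium, read 8.43, 8.53 and 8.40 in ST2KO and 7.16, 7.31 and 7.58 in WT (1.10 ± 0.23, adjusted p = 0.00745). Gfi1, a repressor needed for granulocyte development, read 9.11, 9.43 and 9.34 in ST2KO and 8.27, 8.16 and 8.25 in WT (1.07 ± 0.14, adjusted p = 1.10e-04). For each of these 4 genes the lowest ST2KO value stood above the highest WT value, which was part of the choice of these genes. Their calls held in all 30 settings.

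The remaining large rises had other roles. St6galnac3, a sialyltransferase of glycolipids, differed by 1.37 ± 0.28. Slc46a3, a lysosomal transporter, differed by 1.12 ± 0.14 and Espn, which bundles actin filaments, by 1.04 ± 0.19. Nt5e, the ectoenzyme CD73 that turns AMP into adenosine, read 9.15, 9.53 and 9.39 in ST2KO and 8.51, 8.11 and 8.37 in WT (1.03 ± 0.18, adjusted p = 0.00107), and 1700025G04Rik differed by 1.04 ± 0.20. Spag6l, a protein of cilia and flagella, was above background on the 3 ST2KO arrays and on 0 WT arrays, at least 1.41-fold higher (adjusted p = 0.004). Calls for these 6 genes held in all 30 settings. Dock2, an exchange factor for Rac in blood cells, and Plekhb2 differed by 1.25 ± 0.35 and 1.09 ± 0.32 with adjusted p of 0.0426 and 0.0495, and their calls were lost in 15 and 19 of the settings. Leaving out any 1 of the 6 IL-33 arrays was among those settings for both genes, with adjusted p up to 0.161 for Dock2 and 0.206 for Plekhb2, as was leaving out 1 of 5 arrays of the other conditions for Dock2 and 1 of 6 for Plekhb2.

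Rises were spread thinly over the gene lists. Of 711 measured list members, 16 were higher (2.25%), close to the 2.32% of all genes tested, while 121 were lower (17%), against 3.75% of all genes. The lists were written with earlier results known, so these shares are a description. Rgs2, which speeds the shut-off of G-protein signals, read 6.39, 6.58 and 6.90 in ST2KO and 5.70, 5.71 and 5.59 in WT (0.96 ± 0.12, adjusted p = 7.28e-05), and kept its call in all 30 settings. Trib3, a pseudokinase induced in the integrated stress response, differed by 0.69 ± 0.14 (adjusted p = 0.00445), and 1 setting ended its call. Il4ra, the receptor chain for IL-4 and IL-13, read 5.84, 5.70 and 5.73 in ST2KO and 4.92, 4.88 and 5.04 in WT (0.81 ± 0.20, adjusted p = 0.019). Its groups did not overlap, but the adjusted p lay between 0.0521 and 0.0651 without WT array 1 or 2 or without any 1 ST2KO array. Cd200r1, an inhibitory receptor, differed by 0.58 ± 0.14, with an adjusted p of 0.0779 without WT array 1, of 0.059 without ST2KO array 2 and of 0.0703 without ST2KO array 3. Pfkp, the platelet isoform of phosphofructokinase, differed by 0.75 ± 0.17, with 0.0652 without WT array 3 and 0.0746 without ST2KO array 2. Tap2, a subunit of the peptide transporter for MHC class I, differed by 0.53 ± 0.12, with 0.0575 without WT array 2, 0.0733 without ST2KO array 2 and 0.0775 without ST2KO array 3. Trib2, a pseudokinase of myeloid cells, differed by 1.02 ± 0.27, and its adjusted p was between 0.0553 and 0.141 without WT array 1 or 2 or any 1 ST2KO array. Of 31 cell cycle genes 1 was higher, of 17 genes of cholesterol synthesis 0 were called in either direction, and the share of cytokine receptors called was 1 lower and 1 higher of 27, near the shares of all genes, with 2 lower without WT number 2.

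The same genotypes were next compared on the other arrays. Without stimulus, limma called 0 of 9973 genes (0%), with 832 at an unadjusted p under 0.05 and a lowest adjusted p of 0.553. After IgE it called 2 genes (0.0201%), 1 higher and 1 lower (0.01% each), with 800 at an unadjusted p under 0.05. The 2 were Stmn1, a tubulin-binding protein, higher at 0.62 ± 0.09 (adjusted p = 0.0369), and Syn1, a synaptic vesicle protein, lower at -0.88 ± 0.14 (adjusted p = 0.0369), and neither was called after IL-33. Alternatives gave between 0 and 14 genes for IgE. Cxcl2, Csf2 and Plat, far apart after IL-33, overlapped between the genotypes after IgE, where all 3 were above background on every array. Cxcl2 read 13.20, 12.89 and 12.62 in ST2KO after IgE, against 13.18, 12.74 and 13.26 in WT after IgE. Csf2 read 14.02, 13.65 and 13.85 in ST2KO after IgE and 13.95, 13.67 and 14.08 in WT after IgE. For Csf2 every IgE array stood above the WT arrays after IL-33. Plat read 7.53, 6.96 and 6.42 in ST2KO after IgE and 7.27, 7.47 and 7.21 in WT after IgE.

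**Figure D4:**
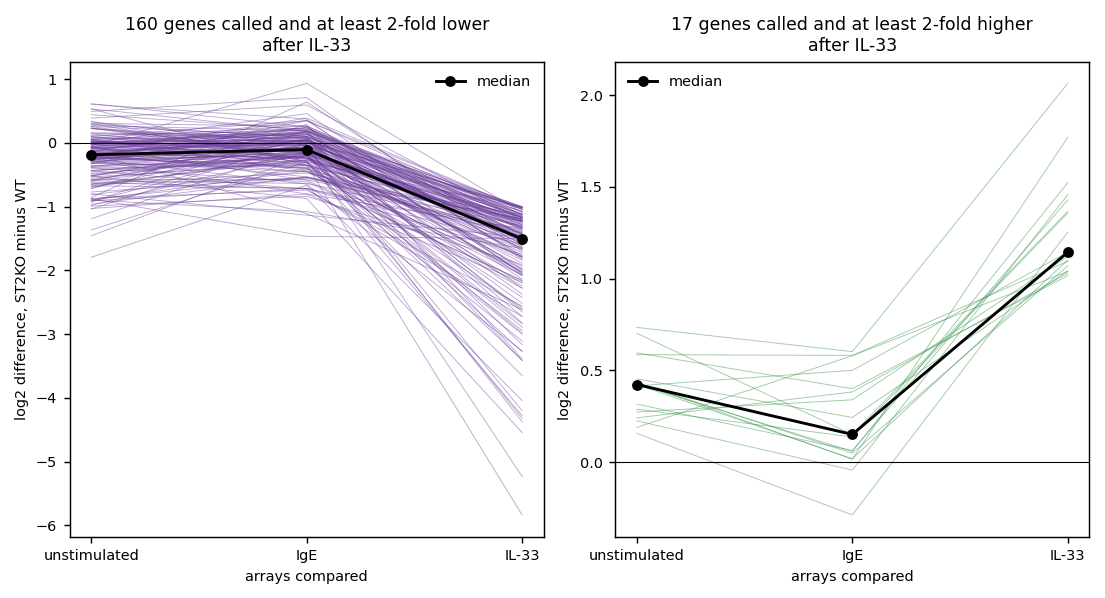
Each thin line is a gene called and at least 2-fold lower (left, 160 genes) or higher (right, 17 genes) in ST2KO after IL-33, with its log2 difference, ST2KO minus WT (vertical axis), on the unstimulated, IgE and IL-33 arrays. Black points are medians, which are -0.19, -0.11 and -1.51 on the left and 0.42, 0.15 and 1.14 on the right.

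Most genes with large differences after IL-33 had the same sign without stimulus. Of the 160 genes at least 2-fold lower after IL-33, 118 (73.8%) were also lower on the unstimulated arrays, with a median difference of -0.19. All 17 genes at least 2-fold higher were also higher there, with a median of 0.42, and 15 of the 17 were higher after IgE. Over all genes tested 5628 of 9973 (56.4%) kept their sign between IL-33 and no stimulus. The unstimulated and the IL-33 comparison share no array but are not independent. WT arrays of the 2 conditions deviated together from their group means, with correlations over all genes of 0.39, 0.59 and 0.18 for same numbers. WT IL-33 array 3 correlated more, at 0.44, with an unstimulated WT array of another number. The largest unstimulated differences among the called genes named here were in Acod1, Tnf, Cd40, Csf2 and Lcn2. Unstimulated Acod1 read 9.0, 8.69 and 8.19 in ST2KO and 10.09, 11.32 and 9.84 in WT (-1.79 ± 0.35, adjusted p = 0.553). Unstimulated Tnf read 5.95, 5.98 and 5.42 in ST2KO and 6.20, 8.68 and 6.84 in WT (-1.46 ± 0.48, adjusted p = 0.553). Unstimulated Cd40 read 5.27, 5.04 and 5.14 in ST2KO and 6.11, 7.52 and 5.92 in WT (-1.37 ± 0.30, adjusted p = 0.553). WT array 2 was the highest of the 3 WT arrays for each, and none passed the test.

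Without the 3 arrays labelled WT number 2, the unstimulated difference was -1.34 for Acod1, -0.74 for Tnf, -0.86 for Cd40 and -0.66 for Csf2. Of the 160 genes, 106 (66.3%) then had the same sign without stimulus, of the 17 genes 17 did, and of all genes tested 5508 (55.2%). Without those arrays 591 genes were called after IL-33, 195 higher and 396 lower, and 446 of them were among the 605.

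A test of the difference of differences asked whether the gap between genotypes after IL-33 differed from that without stimulus. It uses the same IL-33 arrays and called 176 genes (1.76%), 158 lower (1.58%) and 18 higher (0.18%). Of the 374 genes called lower after IL-33, 154 passed it, and of the 231 called higher, 17 did. Plat had a value of -5.82 ± 0.27 (adjusted p = 1.24e-09) and Cxcl2 of -4.25 ± 0.44 (adjusted p = 1.66e-05). Tnf (-1.82 ± 0.68, adjusted p = 0.293), Cd40 (-1.64 ± 0.43, adjusted p = 0.0686) and Cxcl1 (-2.29 ± 0.63, adjusted p = 0.0949) did not pass it. Without the arrays labelled WT number 2, Tnf had an adjusted p of 0.0178, Cd40 of 6.92e-04 and Cxcl1 of 0.113. Other named falls that did not pass include Ccl4, Bcl2a1d, Bcl2a1c and Il4, with adjusted p of 0.714, 0.664, 0.788 and 0.795. These were 0.479, 0.362, 0.700 and 0.823 without WT number 2. Among rises, Itgb4 (1.33 ± 0.26, adjusted p = 0.00756), Nav1 (1.10 ± 0.25, adjusted p = 0.0309) and Slc46a3 (0.85 ± 0.20, adjusted p = 0.0315) passed. Ivl, the largest rise, did not (1.33 ± 0.70, adjusted p = 0.526). St6galnac3, Klf2, Espn, Gfi1, Nt5e, Cited4 and Rfx2 also failed, with adjusted p of 0.593, 0.479, 0.428, 0.194, 0.176, 0.0736 and 0.0586. Without WT number 2, Cited4 and Rfx2 passed at 0.0462 and 0.0340, while Ivl had 0.357. The count of rises that passed depends on single arrays. It was 4 to 11 without any 1 of 10 arrays, which were the 3 ST2KO IL-33 arrays, the 3 unstimulated ST2KO arrays, WT IL-33 arrays 1 and 3 and unstimulated WT arrays 2 and 3. With genotype and array number as a random block, 224 genes passed, 195 lower and 29 higher, among them all 176.

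The response to IL-33 within each genotype was set beside these values. In WT cells limma called 377 genes (3.78%) between IL-33 and no stimulus, 300 higher (3.01%) and 77 lower (0.772%) after IL-33. In ST2KO cells it called 0 genes (0%), with 274 at an unadjusted p under 0.05 and a lowest adjusted p of 0.61. Of the 374 genes lower in ST2KO, 266 were called as rising in WT cells, and of the 231 higher in ST2KO, 45 were called as falling in WT cells. Itgb4 changed by -1.37 ± 0.18 in WT cells after IL-33 (adjusted p = 1.01e-04), Cited4 by -1.14 ± 0.21 (adjusted p = 0.00254) and Rfx2 by -0.99 ± 0.22 (adjusted p = 0.014). With the array number as a block in the WT arrays alone 315 genes were called, 273 higher and 42 lower, and with genotype and number as a random block 467, 350 higher and 117 lower. In ST2KO cells both blocks called 0. These comparisons share the IL-33 arrays with that between genotypes.

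Markers of other cells and of interferon were read on the same arrays. The interferon response list had 2 lower and 0 higher of 32, with a median of -0.56 after IL-33 and of -1.05 without stimulus. Its mean level was 8.45, 7.57 and 7.18 on ST2KO arrays and 8.08, 9.52 and 7.62 on WT arrays, so that WT array 2 stood apart. ST2KO array 1 lay above WT arrays 1 and 3. The 2 called, the guanylate-binding proteins Gbp2 (-0.97 ± 0.27) and Gbp3 (-1.42 ± 0.40), had adjusted p of 0.0402 and 0.0427, and of 0.159 and 0.175 without WT IL-33 array 2. Their calls were lost in 11 and 14 of the 30 settings, which included leaving out WT IL-33 array 1 (0.0682 and 0.0666), ST2KO IL-33 array 1 (0.0621 and 0.0598), array 2 (0.132 and 0.152) or array 3 (0.122 and 0.128), and some ST2KO arrays of the other conditions (0.0502 to 0.0559). Neutrophil markers had 1 lower and 1 higher of 14, with 10 of the 14 differences below 0 and a median of -0.54. Their mean level was 7.37, 6.42 and 6.55 on ST2KO arrays and 7.33, 7.94 and 6.92 on WT arrays. WT array 2 was the highest, and ST2KO array 1 lay above WT arrays 1 and 3. The one lower was Lcn2, an iron-chelating protein of neutrophils that other myeloid cells also make, which read 8.06, 7.23 and 7.93 in ST2KO and 10.46, 10.47 and 10.46 in WT (-2.72 ± 0.31, adjusted p = 1.55e-05). Macrophage and monocyte markers had 1 lower of 15 (0 without WT number 2), with 14 of the 15 differences below 0 and a median of -0.46. Their mean level was 6.94 to 7.49 in ST2KO and 7.38 to 8.12 in WT, the highest again on WT array 2. Mast cell markers had 1 lower of 13 (2 without WT number 2), which was Tph1. Of the 13 differences 9 were below 0, with a median of -0.07. The mean level over that list, Tph1 included, was 8.55 to 8.87 in ST2KO and 8.83 to 9.12 in WT. Eosinophil markers had 1 lower of 5, which was Serpinb2. Of the 5 differences 3 were below 0, with a median of -0.16. The mean level over the 5, Serpinb2 included, was 6.18 to 6.25 in ST2KO and 6.52 to 7.36 in WT. WT array 2 was the highest, and the other WT arrays had means of 6.52 and 6.54. Dendritic cell markers had 1 lower of 14 (0 without WT number 2). Their mean level was 6.35 to 6.54 in ST2KO and 6.46 to 6.74 in WT. Erythroid and megakaryocyte markers had 1 lower of 12, with a mean level of 7.80 to 8.02 in ST2KO and 7.78 to 8.37 in WT. Lymphocyte markers had 0 called of 4, with a mean level of 6.51 to 6.72 in ST2KO and 6.53 to 6.63 in WT. The part of these cells in the differences above was not tested.

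The genes that neighbour Il1rl1 on its chromosome were examined in turn. Of 39 genes measured within 5 Mb of it, 1 was higher and 2 lower in ST2KO after IL-33, and 0 were called without stimulus or after IgE. These counts are near the shares of all genes tested after IL-33, 2.32% higher and 3.75% lower. The rise was in Slc9a2, a sodium-proton exchanger, which read 6.51, 5.76 and 6.53 in ST2KO and 5.09, 4.52 and 5.77 in WT (1.14 ± 0.33, adjusted p = 0.0491), and the groups overlapped. Its call was lost in 18 of the 30 settings, with an adjusted p up to 0.195. They included leaving out IL-33 array WT 1 or 2, ST2KO 1 or 3, or any 1 of 7 arrays of the other conditions. The adjusted p of Slc9a2 was 0.130 without the 3 arrays labelled WT number 2. The falls were in Mgat4a, a glycosyltransferase, at -0.62 ± 0.11 (adjusted p = 0.00147), and Tex30, at -0.84 ± 0.13 (adjusted p = 3.25e-04), which was named after its values were seen and kept its call in all 30 settings.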

How the data were processed

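The arrays were Illumina bead arrays, hybridised with biotin-labelled RNA per the labels' protocols. What the authors deposited is 1 mean signal for each probe on each array, a linear intensity not normalized between arrays (lowest signal 76.2 to 83.7, highest 30053), and, per the file headers, a detection p-value. The authors' deposited processed values, on a log2 scale (median 4.29 on each array) and made by steps not given in the sources used here, served as an alternative. The neqc function of limma 3.58.1 (R 4.3.3) corrected the background and normalized by quantiles, with an offset of 16 added before log2. Of 45281 probes, 18078 with a detection p under 0.05 on at least 3 of 18 arrays were kept. Names came from the platform annotation (34885 probes with 1 symbol, 18 with several, 10378 with none), and the brightest probe stood for its gene, which left 9973 genes. Groups came from the labels. All 18 arrays entered 1 fit of 6 group means (lmFit, eBayes), and p-values of each contrast were adjusted by Benjamini-Hochberg. The fit was tested on simulated data. The members and the 37 gene lists were chosen with earlier results of these data known. A written rule named the 15 largest falls and rises among called genes that did not overlap and were above background in both groups, the 5 largest bounds in each direction, up to 8 members of each list, and Il4, Il13, Il6, Mcpt8, Il1rap and Myd88, and the text takes its genes from these, except that the genes called after IgE and the called neighbours of Il1rl1 were named after their values were seen. The 30 alternatives changed the normalization, filter, probe rule, variance model, samples or block. Deviations of same-numbered WT arrays correlated at 0.39, 0.59 and 0.18 between IL-33 and no stimulus. Between IL-33 and IgE they correlated at 0.20, 0.44 and 0.14. WT IL-33 arrays 1 and 2 matched their own number best in both, while array 3 matched another number better (0.44 and 0.32). For ST2KO arrays between IL-33 and no stimulus the values were -0.03, 0.045 and 0.26, and array 3 alone matched its own number best. The blocks for the response within a genotype were chosen after seeing the data. Promoters and neighbours came from RefSeq tables of GRCm38.p6.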

Additional observations from a re-analysis of the deposited data

Results flagged for a closer look

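The test of whether the gap between genotypes differed between IL-33 and no stimulus was passed by these named genes. Their values are differences of log2 differences, ST2KO minus WT. In each case the response to IL-33 in ST2KO cells differed from that in WT cells. Among secreted factors and chemokines the values were -4.25 for Cxcl2, -3.18 for Csf2, -3.96 for Il1a, -2.84 for Il1b, -2.67 for Il6, -2.03 for Ebi3, -1.69 for Il1rn, -1.76 for Cxcl16 and -1.49 for Ccl3. Among proteases, inhibitors and enzymes they were -5.82 for Plat, -1.94 for Serpinb2, -3.02 for Itih1, -4.02 for Dgat2, -2.25 for Acod1, -2.91 for Tph1, -0.77 for Ptges, -2.10 for St3gal5, -0.87 for Egln3 and -1.08 for Sod2. Among NF-kB genes they were -2.89 for Nfkbia, -3.42 for Nfkbiz, -2.85 for Ikbke, -2.54 for Zc3h12a, -1.78 for Bcl3, -1.80 for Relb, -1.95 for Tnfaip3 and -1.51 for Nfkbie. Among other signalling genes and transcription factors they were -4.62 for Cdk5r1, -1.34 for Irak3, -0.96 for Irak2, -2.40 for Rasgrp1, -0.91 for Pik3cd, -1.98 for Egr2, -1.89 for Batf, -1.29 for Ier3, -0.95 for Junb, -1.78 for Gadd45b, -1.58 for Socs3, -1.85 for Pim2 and -0.83 for Dusp16. Among surface receptors they were -4.24 for Tpbg, -3.12 for Milr1, -3.16 for Clec4e, -1.0 for Clec4d, -2.79 for Hcar2, -1.44 for Ccrl2, -2.51 for Icam1, -1.99 for Fas, -1.94 for Tnfrsf1b and -1.11 for Cd82. The others below 0 were -1.16 for Nlrp3, -2.30 for Slc7a11, -0.78 for Sqstm1, -1.01 for Hilpda, -2.19 for Ubxn11, -1.14 for Rcl1, -0.84 for Stip1 and -0.76 for Tex30.

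The named genes with a value above 0 that passed were Itgb4 at 1.33, Nav1 at 1.10, Tppp3 at 1.07, Slc46a3 at 0.85 and Rgs2 at 0.78. Without the arrays labelled WT number 2, Tppp3 and Rgs2 no longer passed, with adjusted p of 0.0684 and 0.0752, while Itgb4, Nav1 and Slc46a3 had 0.00872, 0.0297 and 0.0346.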

How the results depend on the processing

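After IL-33, 605 genes were called (231 higher, 374 lower). Array weights gave 1347 (679 higher, 668 lower), the 6 compared arrays alone 423 (115 higher, 308 lower), median scaling 454 (132 higher, 322 lower), no background correction 667 (302 higher, 365 lower, of which 91 rather than 160 were at least 2-fold lower), and leaving out 1 array 357 to 652, the lowest without ST2KO IL-33 array 2, with 365 without WT IL-33 array 1 and 369 without ST2KO IL-33 array 3. The labels do not say whether the replicate numbers pair the genotypes, and the main fit did not pair them. Same-numbered IL-33 arrays correlated at -0.24, -0.06 and 0.39, and 1 of the 3 ST2KO arrays correlated best with its own number. Without stimulus the values were 0.14, 0.09 and 0.15, and after IgE 0.24, 0.10 and 0.09. In both of these conditions ST2KO arrays 1 and 3 correlated best with their own number. With 3 arrays a group these values cannot settle the pairing. The replicate block gave 349 genes (77 higher, 272 lower), and a random block of genotype and number 614. For the difference of differences, 176 genes, array weights gave 300 (54 higher, 246 lower), the replicate block 172, the random block 224 (29 higher, 195 lower) and leaving out 1 array 138 to 190. Without stimulus every setting called 0. After IgE, 2 genes, the count was 0 with median scaling, the authors' values, array weights, trend and robust variance, the compared arrays alone, the replicate block and without WT number 2, 4 with no filter on dim probes, and 0 to 14 leaving out 1 array. Of the 106 genes named and called after IL-33, 93 kept their call in the 30 settings, 13 lost it in at least 1 and 0 changed sign. Of the genes not called, Mcpt8 ran from -0.14 to 0.075 leaving out 1 array (0.067 without WT number 2) and Myd88 from -0.26 to 0.094 (0.094 without WT number 2). The causes were not tested.

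Precision is limited by 3 arrays a group. The 95% confidence interval of a difference reached 0.32 to either side at the median gene (0.45 for the difference of differences). This interval is not adjusted for the number of genes. A call at the median gene therefore needed a larger difference than that, and smaller ones were not detectable there. For probes near background the added offset compresses folds, and where a group was not well above background a bound alone is given. Several gene list counts of 1 to 3 moved with the setting, for example 0 to 3 for macrophage and monocyte markers and 0 to 5 for dendritic cell markers called lower. Others did not, such as 1 eosinophil marker and 2 members of Fc epsilon receptor signalling called lower in all 30 settings.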
